A study of Mus musculus with 30 samples.

Results

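The polypyrimidine tract binding proteins Ptbp1, Ptbp2 and Ptbp3 were followed through the in vitro differentiation of mouse embryonic stem cells into neurons. All gene rows of the expression table and all events of the splicing table that carry these 3 symbols were taken, which gave 3 of 54393 genes and 130 of 661327 splicing events. Of these events, 40 belonged to Ptbp1, 48 to Ptbp2 and 42 to Ptbp3, and they comprised 33 cassette exons, 39 introns, 39 alternative acceptors and 19 alternative donors.

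PolyA RNA of CGR8 cells, a mouse embryonic stem cell line, was sequenced at 3 stages: stem cells (ESC), embryoid bodies on day 8 of differentiation (EB8), which had been given retinoic acid while they formed, and neurons after 7 days in vitro (DIV7), grown from the dissociated embryoid bodies. Each stage held 4 lines edited with CRISPR-Cas9 and their parental line. Puf60.mEx5.HOM is labelled as carrying a homozygous deletion of exon 5 of Puf60, a factor that binds near 3' splice sites. Puf60.pEx5.HOM and Puf60.pEx5.HET include that exon constitutively, from both alleles and from a single allele. Rbm38KO carries a deletion in Rbm38, which encodes an RNA-binding protein, and the parental line (WT) is unedited. Every group had 2 libraries, A and B, and the 15 groups made 30 libraries. The edited lines are clonal. Independent clones are mentioned for the series, but no label ties a library to a clone. The p-values below therefore measure only the spread between these libraries, and some of that spread may be technical.

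Puf60 exon 5 was included in 7.49 to 13.01% of transcripts in Puf60.mEx5.HOM, 93.15 to 98.97% in Puf60.pEx5.HOM, 49.16 to 64.87% in Puf60.pEx5.HET and 20.71 to 43.95% in WT (6 libraries each). The values of Puf60.mEx5.HOM lay below those of WT but above the 0 that a homozygous deletion would give, so the measured PSI goes against that label in part, and results of Puf60.mEx5.HOM below are those of the line labelled so. Rbm38 had 0 junction reads in the 6 Rbm38KO libraries and 232 to 2578 in the 6 WT libraries. Exon-exon junction reads numbered 28375996 to 38571969 per ESC library, 26152711 to 30675968 per EB8 library and 23204150 to 28655479 per DIV7 library. The summed level of 8 pluripotency markers was 3943 to 5798 CPM (junction reads scaled for depth) in ESC, 21.3 to 52.8 CPM in EB8 and 45.1 to 246 CPM in DIV7. The sum of 8 neuronal markers was 221 to 329 CPM in ESC, 674 to 1849 CPM in EB8 and 3648 to 4423 CPM in DIV7. In DIV7, 8 astrocyte markers summed to 467 to 1239 CPM and 8 fibroblast and smooth muscle markers to 284 to 4290 CPM, while 5 microglia and blood markers reached at most 2.22 CPM. In such bulk libraries, fewer cells of a type and less RNA per cell cannot be told apart.

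PTB proteins bind CU-rich stretches in pre-mRNA with RNA recognition motifs and mostly keep nearby exons out of the mRNA. Ptbp1 is the form of most dividing, non-neuronal cells, Ptbp2 (nPTB) is the form of neural progenitors and young neurons, and Ptbp3 (ROD1) was described mainly in blood-forming cells. The genes are tied to each other through exons whose skipping shifts the reading frame: Ptbp1 protein promotes skipping of Ptbp1 exon 11 and of Ptbp2 exon 10, and the shortened transcripts are degraded by nonsense-mediated decay. In neurons, the microRNA miR-124 lowers Ptbp1, and the release of Ptbp2 exon 10 from Ptbp1 goes with a rise of Ptbp2 protein. Ptbp1 exon 9 encodes part of the linker between RNA recognition motifs, and the protein made without it represses many target exons less strongly.

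The exons on which the splicing results turn are shown here 5' to 3' in transcript direction, with coordinates on GRCm38 (mm10) and bases joined from the GENCODE vM21 transcripts. The first 3 are the homologous 34-nt exons of the family, which all have a length that is not a multiple of 3. Capitals mark the 19 of 34 positions (55.9%) at which all 3 genes carry the same base.
Ptbp1 exon 11, chr10:79862014-79862047, plus strand: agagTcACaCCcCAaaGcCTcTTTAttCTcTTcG
Ptbp2 exon 10, chr3:119724612-119724645, minus strand: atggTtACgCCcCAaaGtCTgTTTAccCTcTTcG
Ptbp3 homologous exon, chr4:59485339-59485372, minus strand: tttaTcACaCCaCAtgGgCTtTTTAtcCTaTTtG
Ptbp1 exon 11 shares 26 of 34 bases (76.5%) with Ptbp2 exon 10 and 22 of 34 (64.7%) with the Ptbp3 exon, and the Ptbp2 and Ptbp3 exons share 21 of 34 (61.8%). The next pair is Ptbp1 exon 9 and the 78-nt exon at the same place in Ptbp3, both with a length that is a multiple of 3. Capitals mark the 46 of 78 positions (59.0%) with the same base.
Ptbp1 exon 9, chr10:79860117-79860194, plus strand: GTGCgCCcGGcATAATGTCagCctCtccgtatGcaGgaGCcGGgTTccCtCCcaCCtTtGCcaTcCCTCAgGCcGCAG
Ptbp3 78-nt exon, chr4:59488111-59488188, minus strand: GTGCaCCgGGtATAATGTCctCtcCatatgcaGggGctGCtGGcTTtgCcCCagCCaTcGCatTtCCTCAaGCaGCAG
The last 2 are the Ptbp3 exon with the widest span of group means and the Ptbp2 exon whose acceptor varied. Ptbp3 exon 2 has no counterpart above and is printed without capitals. Ptbp2 exon 9 is printed in its long form, with capitals for the 15 nt that are added when an upstream acceptor is used.
Ptbp3 exon 2, chr4:59546149-59546182, minus strand: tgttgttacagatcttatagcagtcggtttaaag
Ptbp2 exon 9, long form, chr3:119726066-119726220, minus strand: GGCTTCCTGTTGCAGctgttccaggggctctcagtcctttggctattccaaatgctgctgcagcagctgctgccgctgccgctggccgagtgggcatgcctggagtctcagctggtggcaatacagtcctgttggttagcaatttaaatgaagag
In the same annotation, Ptbp1 (ENSMUSG00000006498.16) spans chr10:79854427-79864771 on the plus strand with 16 transcripts. Ptbp2 (ENSMUSG00000028134.11) spans chr3:119718742-119784466 and Ptbp3 (ENSMUSG00000028382.15) spans chr4:59471868-59549364, both on the minus strand and with 13 transcripts each.

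The main question was how the make-up of the family changed as stem cells became neurons. Ptbp1 fell at each step, Ptbp2 rose by the embryoid body stage and was a little lower in neurons, and Ptbp3 fell at each step from a much lower level. The level of a gene in a library is given as CPM of its exon-exon junction reads, scaled by the median of ratios. All 3 genes have 13 introns in this table, so that levels per intron can be compared between them.

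In ESC, Ptbp1 had 1233 and 1118.5 CPM in Puf60.mEx5.HOM, 1330.3 and 1224 in Puf60.pEx5.HOM, 1314 and 1141 in Puf60.pEx5.HET, 1253 and 1138 in Rbm38KO, and 1254 and 1221 in WT. In EB8, the Ptbp1 level was 231 and 234 CPM in Puf60.mEx5.HOM, 398 and 496 in Puf60.pEx5.HOM, 317 and 279.9 in Puf60.pEx5.HET, 399 and 451 in Rbm38KO, and 382 and 344 in WT. In DIV7, it was 80.6 and 67.9 CPM in Puf60.mEx5.HOM, 85.4 and 133 in Puf60.pEx5.HOM, 81.0 and 135 in Puf60.pEx5.HET, 80.3 and 97.4 in Rbm38KO, and 117 and 88.0 in WT. The 3 stages did not overlap: every ESC library lay above every EB8 library, and every EB8 library above every DIV7 library. In WT, Ptbp1 fell by 1.77 on the log2(CPM + 1) scale in EB8 against ESC (SE 0.20, 3.40-fold, adjusted p = 1.65e-07, limma with Benjamini-Hochberg adjustment over 13929 genes). It fell by 1.83 again in DIV7 against EB8 (3.55-fold, adjusted p = 1.45e-07) and by 3.60 in DIV7 against ESC (12.1-fold, adjusted p = 1.66e-12). Quantile normalization gave a smaller change in EB8 against ESC, -0.997. Genes 2-fold lower at an adjusted p under 0.05 made up 18.2% of all genes in EB8 against ESC, 12.7% in DIV7 against EB8 and 25.4% in DIV7 against ESC.

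Ptbp2 took the opposite course up to the embryoid body stage. In ESC, Ptbp2 had 19.8 and 26.02 CPM in Puf60.mEx5.HOM, 44.5 and 46.1 in Puf60.pEx5.HOM, 31.2 and 39.5 in Puf60.pEx5.HET, 27.95 and 35.4 in Rbm38KO, and 33.5 and 31.3 in WT. In EB8, the Ptbp2 level was 166 and 173 CPM in Puf60.mEx5.HOM, 248 and 196 in Puf60.pEx5.HOM, 221 and 178 in Puf60.pEx5.HET, 167 and 152 in Rbm38KO, and 191 and 172 in WT. In DIV7, it was 113 and 128 CPM in Puf60.mEx5.HOM, 128 and 142 in Puf60.pEx5.HOM, 143 and 155 in Puf60.pEx5.HET, 143 and 149 in Rbm38KO, and 128 and 142 in WT. Every EB8 and DIV7 library lay above every ESC library, and within each line both DIV7 libraries lay below both EB8 libraries. In WT, Ptbp2 rose by 2.45 (log2) in EB8 against ESC (SE 0.14, 5.45-fold, adjusted p = 5.87e-13) and by 2.02 in DIV7 against ESC (4.07-fold, adjusted p = 7.54e-12). Genes 2-fold higher made up 21.7% and 29.7% of all genes in these 2 comparisons. In DIV7 against EB8, WT Ptbp2 fell by 0.42 (1.34-fold, adjusted p = 0.0103), and this call was lost without WT library A of EB8 (a change of -0.35, adjusted p = 0.0842) or of DIV7 (-0.35, adjusted p = 0.0817).

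Ptbp3 was low throughout. In ESC, Ptbp3 had 33.7 and 38.5 CPM in Puf60.mEx5.HOM, 38.6 and 42.6 in Puf60.pEx5.HOM, 35.01 and 39.1 in Puf60.pEx5.HET, 37.0 and 37.0 in Rbm38KO, and 35.3 and 34.8 in WT. In EB8, the Ptbp3 level was 20.2 and 19.2 CPM in Puf60.mEx5.HOM, 27.1 and 22.9 in Puf60.pEx5.HOM, 23.6 and 25.9 in Puf60.pEx5.HET, 20.2 and 25.3 in Rbm38KO, and 22.9 and 25.4 in WT. In DIV7, it was 9.904 and 11.001 CPM in Puf60.mEx5.HOM, 8.75 and 11.6 in Puf60.pEx5.HOM, 8.92 and 13.001 in Puf60.pEx5.HET, 12.2 and 13.2 in Rbm38KO, and 15.4 and 13.6 in WT. The stages did not overlap here either, and among the DIV7 libraries both WT libraries were the highest. In WT, Ptbp3 fell by 0.52 (log2) in EB8 against ESC (SE 0.15, 1.44-fold, adjusted p = 0.00285), by 0.70 in DIV7 against EB8 (1.63-fold, adjusted p = 0.000205) and by 1.23 in DIV7 against ESC (2.34-fold, adjusted p = 7.52e-08). The change in EB8 against ESC was lost when libraries were scaled by their total junction reads (-0.05, adjusted p = 0.788), a scaling that moved the median of all genes by 0.42 in that comparison.

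**Figure D1:**
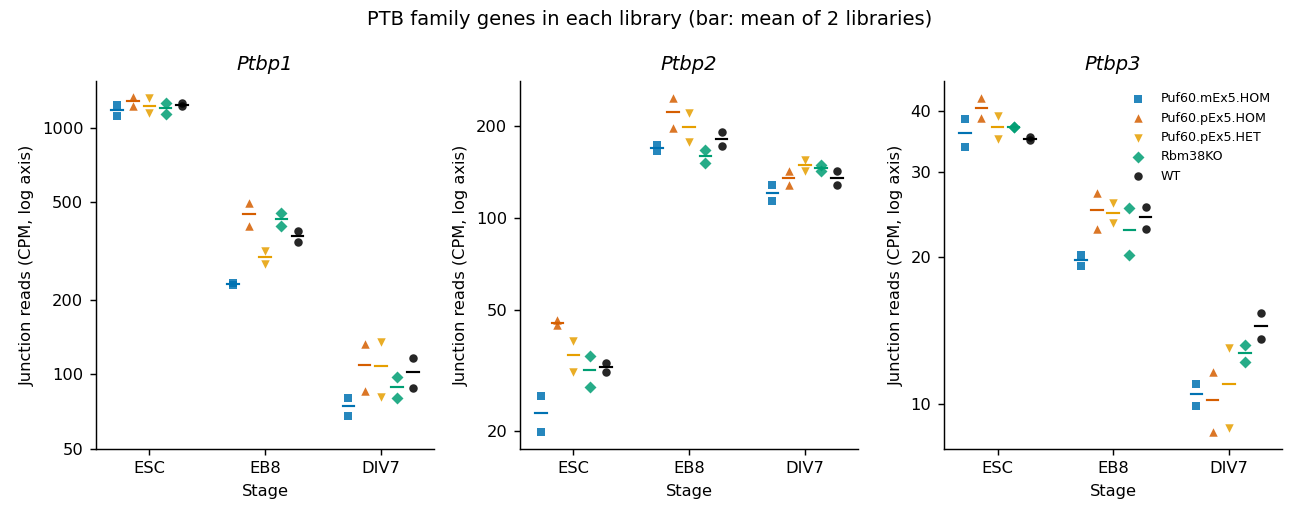
Junction reads of Ptbp1, Ptbp2 and Ptbp3 in CPM (log axis) in each of the 30 libraries, by stage, with 1 colour and marker per line and a bar at the mean of the 2 libraries of a group. Ptbp1 and Ptbp3 step down at each stage in every line, and Ptbp2 is lowest in ESC and highest in EB8.

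The course over stages was measured in every line. Over the 3 genes, 5 lines and 3 pairs of stages, 44 of 45 comparisons passed an adjusted p of 0.05 and 32 of 45 did so with a change of at least 2-fold, against 78.9% and 42.5% of all gene tests in these comparisons. Ptbp1 passed in 15 of 15, all lower at the later stage and all by at least 2-fold (log2 changes of -3.97 to -1.49). Ptbp3 passed in 15 of 15, all lower, 7 of them by at least 2-fold (-1.91 to -0.52). Ptbp2 passed in 14 of 15, with 10 higher and 4 lower. The exception was DIV7 against EB8 in Rbm38KO, where the Ptbp2 change was -0.12 (adjusted p = 0.435). Whether a line's stage change differed from that of WT was tested directly for each gene, and 0 of 24 such differences passed (limma, adjusted p under 0.05), against 3.72% of all gene tests. The 0 of 24 does not show that the changes were equal. Among those 24 and 6 further differences between edited lines, 3 had an unadjusted p under 0.05, against 19.8% of all gene tests. Of these 30 differences, 2 passed the adjusted p, both in EB8 against ESC between Puf60.mEx5.HOM and Puf60.pEx5.HOM, where 32.4% of all genes passed.

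Taken per intron, Ptbp1 was the main PTB transcript of stem cells and Ptbp2 that of neurons. In WT, Ptbp1 made up 94.8% of the family's junction reads per intron in ESC, 63.9% in EB8 and 40.6% in DIV7 (means of 2 libraries). The share of Ptbp2 was 2.48% in ESC, 31.9% in EB8 and 53.7% in DIV7, and that of Ptbp3 was 2.69%, 4.27% and 5.73% in the same order of stages. The ratio of Ptbp2 to Ptbp1 per intron was 0.0256 and 0.0267 in the WT ESC libraries, 0.4987 and 0.4998 in the WT EB8 libraries, and 1.09 and 1.61 in the WT DIV7 libraries. The ratio was above 1 in all 10 DIV7 libraries and below 1 in all 10 EB8 libraries, with group means of 1.29 to 1.65 in DIV7. In EB8, the mean ratio was 0.730 in Puf60.mEx5.HOM, 0.509 in Puf60.pEx5.HOM, 0.665 in Puf60.pEx5.HET, 0.377 in Rbm38KO and 0.499 in WT. The EB8 libraries of Puf60.pEx5.HOM spread from 0.396 to 0.623 around the WT values, whereas both libraries of Puf60.mEx5.HOM and of Puf60.pEx5.HET lay above WT and both Rbm38KO libraries below.

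**Figure D2:**
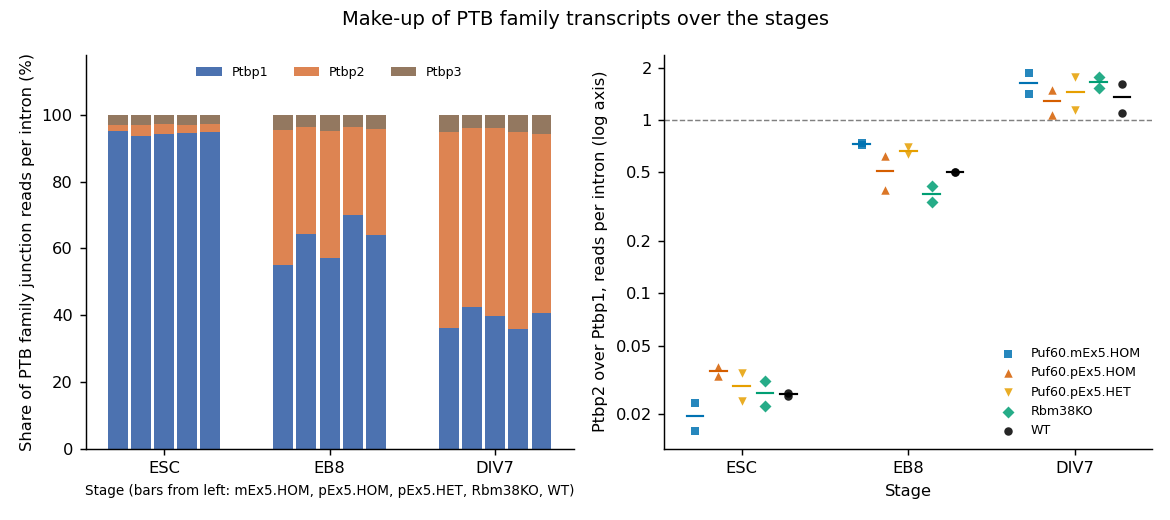
Left, the share of Ptbp1, Ptbp2 and Ptbp3 in the family's junction reads per intron (%), as the mean of 2 libraries for each line and stage. Right, the ratio of Ptbp2 to Ptbp1 reads per intron (log axis) in each library, with bars at group means and a dashed line at 1, which all DIV7 libraries exceed and no ESC or EB8 library reaches.

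The authors' deposited expression table gives levels per transcript length. Its RPKM values for WT were 425.26 in ESC, 120.86 in EB8 and 34.2 in DIV7 for Ptbp1. They were 21.35, 119.17 and 76.18 for Ptbp2 and 21.34, 14.44 and 7.46 for Ptbp3. Over the 5 lines, the authors' deposited table put Ptbp1 at 396.55 to 425.26 RPKM in ESC, 76.7 to 148.09 in EB8 and 22.9 to 34.2 in DIV7. From that table, the WT ratio of Ptbp2 to Ptbp1 was 0.0502 in ESC, 0.986 in EB8 and 2.23 in DIV7, larger than the ratio per intron at each stage. Both scales put Ptbp2 below Ptbp1 in WT ESC and above it in WT DIV7, and they differ in EB8. There, the RPKM ratio from the authors' deposited table was 1.39 in Puf60.mEx5.HOM, 0.926 in Puf60.pEx5.HOM, 1.202 in Puf60.pEx5.HET, 0.723 in Rbm38KO and 0.986 in WT, so that it exceeded 1 in 2 lines, whereas the ratio per intron was below 1 in all EB8 libraries. Ptbp2 and Ptbp3 had nearly equal RPKM values in WT ESC.

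Other genes followed the members closely over the 15 groups. By Pearson's r of log2(CPM + 1) group means, the closest genes to Ptbp1 were Lbr, which encodes a receptor of the inner nuclear membrane (r = 0.9996), Anln, which encodes a scaffold protein of cell division (0.9995), and Fancd2, which encodes a DNA repair protein (0.9987). The closest to Ptbp2 were Tia1, which encodes another splicing regulator that binds U-rich RNA (0.993), Rufy1 (0.989) and Rasal2 (0.987). The closest to Ptbp3 were Asap3 (0.991), Akna (0.990) and Lman2 (0.989). Between members, r was 0.976 for Ptbp1 and Ptbp3, -0.739 for Ptbp1 and Ptbp2, and -0.662 for Ptbp2 and Ptbp3. The 15 groups share stages and lines, and the stages dominate these values.

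The edited lines were then compared with WT at each stage, to see whether a change in Puf60 or Rbm38 went with a change in PTB genes. The differences were small, and the counts that passed lay near the shares of all genes. Of 36 comparisons of a member between an edited line and WT, 3 passed an adjusted p of 0.05 and 0 reached 2-fold, against 5.49% and 0.824% of all gene tests. By unadjusted p, 7 of 36 were under 0.05, against 15.3% of all gene tests. The log2 differences ran from -0.64 to 0.47.

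Ptbp1 fell in Puf60.mEx5.HOM against WT in EB8, by 0.64 on the log2 scale (SE 0.20, 1.56-fold, adjusted p = 0.0362), where 18.2% of all genes passed. Both Puf60.mEx5.HOM libraries, at 231 and 234 CPM, lay below both WT libraries, at 382 and 344 CPM. Ptbp2 rose in Puf60.pEx5.HOM against WT in ESC, by 0.47 (SE 0.14, 1.39-fold, adjusted p = 0.0225), where 17.6% of genes passed. Ptbp3 fell in Puf60.pEx5.HOM against WT in DIV7, by 0.48 (SE 0.15, 1.39-fold, adjusted p = 0.0314), where 15.8% of genes passed. The adjusted p of the Ptbp1 and Ptbp2 differences was above 0.05 whenever a library of the compared groups was left out, with ranges of -0.71 to -0.56 for Ptbp1 and 0.43 to 0.52 for Ptbp2, and that of Ptbp3 when library A of either group was left out (-0.39 and -0.29). In the authors' deposited table, the FDR of the same 3 differences was 0.0688, 0.0192 and 0.245. Where Ptbp1 was lower, in the EB8 libraries of Puf60.mEx5.HOM, the summed neuronal markers were higher. All 8 were detected, and they summed to 1628 and 1849 CPM in these libraries, against 1059 and 1172 CPM in the EB8 libraries of WT. In the same libraries, 6 endoderm and epithelium markers summed to 39.3 and 56.3 CPM in Puf60.mEx5.HOM, against 119 and 144 CPM in WT, and 8 fibroblast and smooth muscle markers to 354 and 766 CPM in Puf60.mEx5.HOM, against 162 and 299 CPM in WT. The part of these markers in the Ptbp1 difference was not tested. In ESC, 8 fibroblast and smooth muscle markers summed to 40.3 and 68.0 CPM in Puf60.pEx5.HOM and to 291 and 426 CPM in WT, with Lum and Dcn under 1 CPM, and their part in the Ptbp2 difference was not tested. In DIV7, 8 astrocyte markers summed to 467 and 757 CPM in Puf60.pEx5.HOM, against 1186 and 1239 CPM in WT. In the same libraries, 6 oligodendrocyte markers summed to 20.6 and 54.4 CPM in Puf60.pEx5.HOM, against 87.2 and 108 CPM in WT, and fibroblast and smooth muscle markers to 284 and 459 CPM in Puf60.pEx5.HOM, against 636 and 2101 CPM in WT. Their part in the Ptbp3 difference was not tested.

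The lines that differ most in Puf60 exon 5 were also set against each other. In EB8, Ptbp1 fell by 0.93 (log2) in Puf60.mEx5.HOM against Puf60.pEx5.HOM (1.91-fold, adjusted p = 0.00112) and Ptbp2 fell by 0.38 (1.30-fold, adjusted p = 0.0352), where 43.7% of all genes passed. The Ptbp2 call was lost in 3 of 4 fits that left out a library of these groups (-0.54 to -0.21, adjusted p of up to 0.346). In ESC, Ptbp2 fell by 0.97 (1.95-fold, adjusted p = 4.85e-05), where 19.5% of genes passed. Of the 9 comparisons of a member between these lines, these 3 passed, beside the shares of all genes given above for EB8 and ESC, and 0 reached 2-fold. The share of all genes was not counted in DIV7 or at 2-fold, so these counts cannot be set against it. Neuronal markers in EB8 summed to 674 and 801 CPM in Puf60.pEx5.HOM, and fibroblast and smooth muscle markers in ESC to 584 and 704 CPM in Puf60.mEx5.HOM. In the EB8 libraries of Puf60.pEx5.HOM, endoderm and epithelium markers summed to 258 and 379 CPM, and fibroblast and smooth muscle markers to 84.7 and 94.0 CPM. Their part in these differences was not tested.

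The change over stages also differed between these lines, by a test of the difference itself. Between EB8 and ESC, the log2 change of Ptbp1 in Puf60.mEx5.HOM minus that in Puf60.pEx5.HOM was -0.81 (SE 0.29, limma, adjusted p = 0.0382), a larger fall in Puf60.mEx5.HOM. The same difference for Ptbp2 was 0.59 (SE 0.20, adjusted p = 0.0270), a larger rise in Puf60.mEx5.HOM, where 32.4% of all genes passed. The Ptbp1 value was above the threshold in 7 of 8 fits that left out a library of these groups, and the Ptbp2 value in 5 of 8.

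Splicing was described as percent spliced in (PSI), the share of reads that join the exon or use the splice site. Of the family's 130 events, 124 had at least 10 reads in both libraries of some group, and the group means of 111 of these (89.5%) spanned less than 5 points, against 86.1% in the whole table. A span of 10 points or more was found for 5 (4.03%), against 6.97% in the whole table. A mean PSI of 5 to 95, required for the fit, was found for 8 of the 130 events (6.15%; 5 of Ptbp2, 3 of Ptbp3, 0 of Ptbp1) and for 39973 of all 661327 (6.04%), so that the family was near the whole table in these shares. Calls required an adjusted p under 0.05 and a difference of at least 10 points. Between stages, 9 of 120 tests of these events were called, against 18.6% of all event tests. Against WT, 0 of 96 tests in edited lines were called, against 0.587% of all event tests. An unadjusted p under 0.05 was found for 7, against 8.77% of all event tests. At any size, 3 passed the adjusted p, all in Puf60.pEx5.HOM against WT in EB8. The share of all event tests that did so was not counted. Complementary sites, such as the upstream and main acceptor of Ptbp2 exon 9, share their reads but count as separate events, here and in the whole table. Of 80 tests of whether a stage change differed between lines, 0 were called (limma) and 3 had an unadjusted p under 0.05, against 0.293% and 7.42% of all event tests.

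The autoregulated exon of Ptbp1 was almost fully included at all stages. Exon 11 had a PSI of 97.25 to 100% over the 30 libraries, behind which stood 109 to 2469 reads. It was 98.75 to 99.28% in the 10 ESC libraries (median 98.96), 99.21 to 99.74% in EB8 (99.66) and 97.25 to 100% in DIV7 (98.76). The ESC and EB8 ranges barely overlapped, and DIV7 had the fewest reads and the widest spread. Inclusion was 0.597 points higher in EB8 than in ESC (exact permutation of stages within lines, two-sided p = 0.000257, adjusted over 14 tests 0.00072, higher in 5 of 5 lines), which is the smallest p that the 7776 arrangements allow. It was 0.84 points lower in DIV7 than in EB8 (exact p = 0.00977, adjusted 0.0137, lower in 5 of 5 lines). Skipped transcripts are degraded, so these values describe the RNA that remained and not how often the exon was skipped.

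Exon 10 of Ptbp2, the exon that Ptbp1 represses, had a lower PSI than Ptbp1 exon 11 in part of the libraries, lowest in ESC. Here too, the values describe the RNA that remained. The PSI ran from 85.95 to 99.09% over the 30 libraries, with 64 to 958 reads. In ESC it was 85.95 and 94.75% in Puf60.mEx5.HOM, 97.18 and 98.07% in Puf60.pEx5.HOM, 96.41 and 97.12% in Puf60.pEx5.HET, 92.29 and 93.91% in Rbm38KO, and 93.27 and 93.69% in WT. In EB8 the 10 libraries held 96.32 to 98.76% (median 96.84), and in DIV7 94.45 to 99.09% (median 96.7). The 2 lines with constitutive Puf60 exon 5 lay above the other ESC lines and within the EB8 range. Inclusion was 2.89 points higher in EB8 than in ESC (exact permutation p = 0.00489, adjusted 0.0114, higher in 4 of 5 lines), and the difference between DIV7 and EB8 was -0.504 points (p = 0.399, adjusted 0.430). The mean PSI of the exon was above 95, so it was outside the main fit, and no test of the differences between lines is given here.

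The homologous 34-nt exon of Ptbp3 was fully included in 28 of the 30 libraries. The exceptions were 1 library of Puf60.pEx5.HET in ESC, at 97.47%, and 1 in DIV7, at 89.9%, with 20 to 130 reads over all libraries. At such depth a skipped share of a few percent was not detectable in DIV7.

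**Figure D3:**
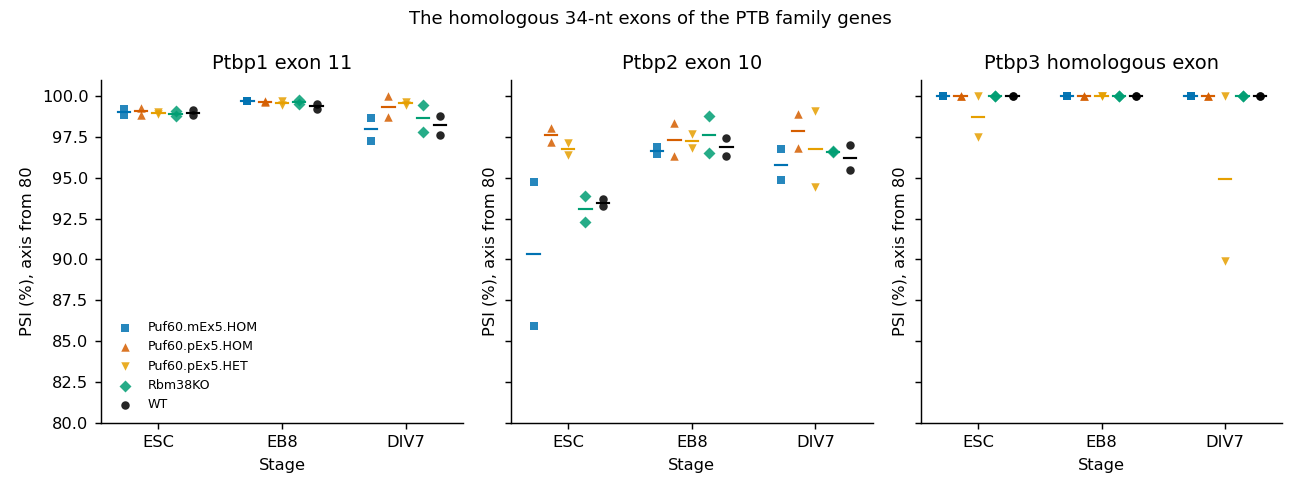
PSI (%, axis from 80) of the homologous 34-nt exons of Ptbp1, Ptbp2 and Ptbp3 in each library by stage, with 1 marker per line and bars at group means. Ptbp1 exon 11 stays at 97.25% or above, Ptbp2 exon 10 goes down to 85.95% in ESC, and the Ptbp3 exon is at 100% in all but 2 libraries.

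Exon 9 of Ptbp1, the linker exon, has no cassette event in the splicing table, so it was followed through its junctions. The mean of the reads at its 2 junctions was divided by the mean at 4 other introns of Ptbp1, a measure chosen after its values were seen. Exon 11 had a ratio of 0.483 to 0.546 in ESC by the same measure while its PSI was near 99%, so the ratio is no PSI and only its change between stages is of use. In ESC, the exon 9 ratio averaged 0.537 in Puf60.mEx5.HOM, 0.516 in Puf60.pEx5.HOM, 0.4998 in Puf60.pEx5.HET, 0.525 in Rbm38KO and 0.523 in WT. In EB8, it averaged 0.362 in Puf60.mEx5.HOM, 0.328 in Puf60.pEx5.HOM, 0.319 in Puf60.pEx5.HET, 0.354 in Rbm38KO and 0.339 in WT. The 10 EB8 libraries (0.305 to 0.367) lay below the 10 ESC libraries (0.481 to 0.548), with a difference of -0.180 (exact permutation p = 0.000257, adjusted 0.00072, lower in 5 of 5 lines). The exon 11 ratio had medians of 0.507 in ESC, 0.484 in EB8 and 0.509 in DIV7. In DIV7 the exon 9 ratio was 0.294 to 0.485, and its difference from EB8 was 0.0139 (exact permutation p = 0.561). Each junction alone gave separate ranges for ESC and EB8: 0.447 to 0.540 and 0.276 to 0.326 at the upstream junction, and 0.516 to 0.588 and 0.334 to 0.414 at the downstream junction.

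The introns on either side of exon 9 had higher retention scores at the later stages, from a very low level. Retention is scored partly on the same junction reads that enter the exon 9 ratio, so these measures are not independent. The highest group means were 5.6% and 8.085% for these introns and at most 3.19% for the other Ptbp1 introns, which were not followed by stage. Retention of the upstream intron was 0.13 to 0.75% in ESC, 0.90 to 4.90% in EB8 and 1.68 to 9.52% in DIV7. That of the downstream intron was 0.12 to 0.70% in ESC, 1.13 to 4.66% in EB8 and 1.55 to 9.72% in DIV7. In EB8 against ESC, retention was higher by 1.80 and 2.37 points (exact permutation p = 0.000257, adjusted 0.00072 each, 5 of 5 lines). These introns were chosen after their values were seen, and the p-values in this paragraph do not allow for that choice. In DIV7 against EB8, it was higher by 2.27 points in 5 of 5 lines and by 2.52 points in 4 of 5 lines (exact p = 0.00720 and 0.00592, adjusted 0.0120 and 0.0118). In EB8 against ESC, retention was higher and the exon 9 ratio lower. In DIV7 against EB8, retention was higher and the ratio differed by 0.0139. The part of unspliced RNA in the ratio was not tested. Plppr3, which lies on the opposite strand and overlaps Ptbp1 from within the downstream intron to its end but not the upstream intron, had 0.357 to 1.34 CPM in ESC, 95.03 to 217 CPM in EB8 and 242 to 333 CPM in DIV7, and its part in these values was not tested. The 78-nt exon of Ptbp3 that corresponds to Ptbp1 exon 9 was included at 100% in all 30 libraries (34 to 265 reads).

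Exon 2 of Ptbp3 had the widest span of group means of all the family's exons. Annotated Ptbp3 transcripts with this exon start their reading frame in exon 1 and hold up to 554 codons, whereas those without it that have a long frame start in the exon that follows and hold up to 523. The PSI of exon 2 was 10.62 and 13.23% in the WT ESC libraries, 22.44 and 27.44% in WT EB8 and 17.77 and 25.99% in WT DIV7. Group means were 9.56% in Puf60.mEx5.HOM, 6.87% in Puf60.pEx5.HOM, 9.80% in Puf60.pEx5.HET, 11.2% in Rbm38KO and 11.9% in WT in ESC. In EB8, they were 24.2% in Puf60.mEx5.HOM, 17.9% in Puf60.pEx5.HOM, 21.7% in Puf60.pEx5.HET, 20.97% in Rbm38KO and 24.9% in WT. All 10 EB8 libraries, at 15.25 to 27.6%, lay above all 10 ESC libraries, at 6.23 to 13.23%. In DIV7, the group means were 28.3% in Puf60.mEx5.HOM, 30.4% in Puf60.pEx5.HOM, 20.6% in Puf60.pEx5.HET, 28.8% in Rbm38KO and 21.9% in WT. The reads behind these values were fewest in DIV7, at 19 to 37 per library.

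In WT, inclusion of Ptbp3 exon 2 rose by 13.02 points in EB8 against ESC (limma, adjusted p = 0.0155), where 12.3% of all events were called. The same comparison was called in Puf60.mEx5.HOM (14.7 points, adjusted p = 0.00289), Puf60.pEx5.HOM (11.1 points, 0.0131) and Puf60.pEx5.HET (11.9 points, 0.0173), and gave 9.74 points in Rbm38KO (0.0619). Over the 5 lines, the mean difference was 12.1 points (exact permutation p = 0.000257, adjusted 0.00072, higher in 5 of 5 lines). In DIV7 against ESC, the exon rose by 18.7 points in Puf60.mEx5.HOM (limma, adjusted p = 0.00240), 23.5 points in Puf60.pEx5.HOM (0.000188) and 17.6 points in Rbm38KO (0.00439), with 9.96 points in WT (0.0515) and 10.8 points in Puf60.pEx5.HET (0.0548). Between DIV7 and EB8 the mean difference over lines was 4.02 points (exact permutation p = 0.126, adjusted 0.147, higher in 3 of 5 lines). Without 1 of 4 WT libraries, the WT difference in EB8 against ESC was 10.5 to 15.5 points, with an adjusted p of 0.0235 to 0.133. These 7 calls were most of the 9 stage calls of the family. The authors' deposited table called this exon in Puf60.pEx5.HOM against WT in EB8, where the difference here was -7.02 points (limma, adjusted p = 0.568).

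**Figure D4:**
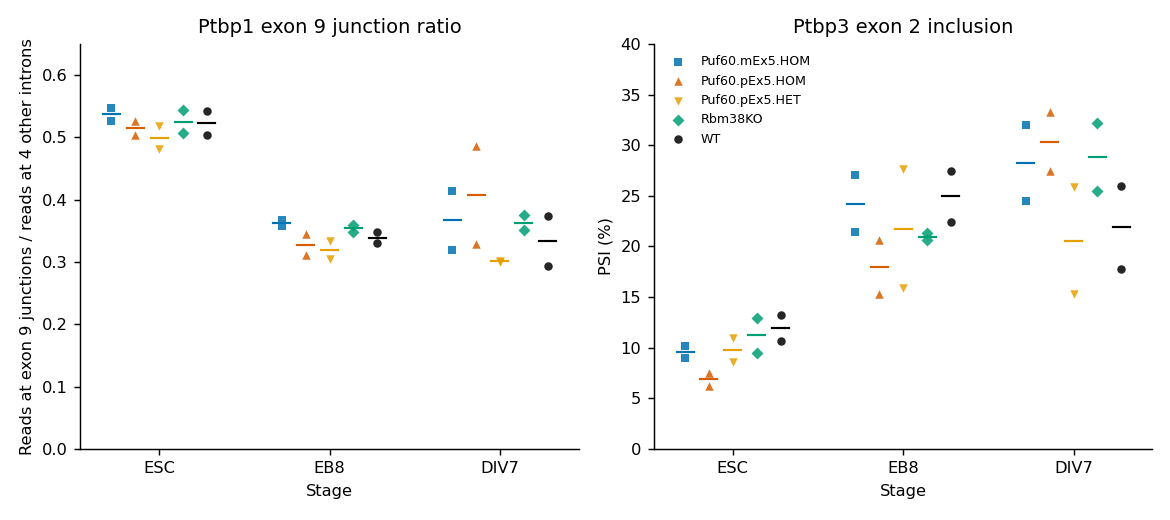
Left, reads at the 2 junctions of Ptbp1 exon 9 over reads at 4 other introns of the gene in each library. Right, PSI (%) of Ptbp3 exon 2 in each library, with markers by line and bars at group means in both panels. The ratio is 0.481 to 0.548 in ESC and 0.305 to 0.367 in EB8, and Ptbp3 exon 2 is at 6.23 to 13.23% in ESC and 15.25 to 27.6% in EB8.

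The acceptor of Ptbp2 exon 9 was the only site called between lines among the 8 events fitted. An upstream acceptor adds the 15 nt shown in capitals above, a multiple of 3, and its PSI is the share of reads that use it. In ESC it was used in 15.6 and 16.4% of reads in Puf60.mEx5.HOM, 25.49 and 35.29% in Puf60.pEx5.HOM, 22.3 and 23.3% in Puf60.pEx5.HET, 21.2 and 22.1% in Rbm38KO, and 10.75 and 24.32% in WT. In EB8 it was used in 9.78 and 11.89% in Puf60.mEx5.HOM, 24.35 and 25.42% in Puf60.pEx5.HOM, 9.31 and 18.96% in Puf60.pEx5.HET, and 14.36 and 17.14% in WT, with a mean of 15.5% in Rbm38KO. In DIV7 it was used in 11.15 and 14.55% in Puf60.mEx5.HOM, 17.13 and 17.18% in Puf60.pEx5.HOM, 12.58 and 15.8% in Puf60.pEx5.HET, 11.57 and 12.3% in Rbm38KO, and 11.27 and 14.73% in WT, over 61 to 653 reads in the whole set. Both Puf60.pEx5.HOM libraries were above all other libraries of their stage, in ESC, EB8 and DIV7.

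In EB8, use of the upstream acceptor was 14.1 points lower in Puf60.mEx5.HOM than in Puf60.pEx5.HOM (limma, adjusted p = 0.000476), where 6.98% of all events were called. This and the main acceptor, its complement on the same reads, were the 2 of 24 tests called between these lines. The difference was -14.4 points in ESC (adjusted p = 0.245) and -4.31 points in DIV7 (0.474). Against WT, the upstream acceptor was used 9.14 points more in Puf60.pEx5.HOM in EB8 (adjusted p = 0.0473), which is under 10 points. That adjusted p ran from 0.0409 to 0.471 under other settings of the limma fit, so it depended on the setting. The difference was 7.745 to 10.525 points in fits that left out a library. Use was higher by 12.9 points in ESC (0.320) and by 4.16 points in DIV7 (0.525). Within Puf60.pEx5.HOM, its use fell by 13.2 points in DIV7 against ESC (adjusted p = 0.00781), where 27.7% of all events were called, and without ESC library A the difference was -8.34 points (0.224). Over the 5 lines, its use was 5.45 points lower in EB8 than in ESC (exact permutation p = 0.00772, adjusted 0.0120, lower in 5 of 5 lines).

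The intron before exon 9 is scored partly on the junction reads of the main acceptor. As scored, it ends at that acceptor and so contains the 15 nt that the upstream acceptor adds. Transcripts spliced at the upstream acceptor can therefore count as retained, and the score is no separate measure. In EB8, its retention score was 10.1% in Puf60.pEx5.HOM, 3.78% in Puf60.mEx5.HOM and 5.36% in WT. Mean use of the upstream acceptor there was 24.9%, 10.8% and 15.8% in the same order. The score was 6.29 points lower in Puf60.mEx5.HOM than in Puf60.pEx5.HOM (limma, adjusted p = 0.00172) and 4.71 points higher in Puf60.pEx5.HOM than in WT (0.0327). The part of acceptor use in these differences was not tested. The authors' deposited table called this intron in both comparisons. Of the 72 events of the family that the authors' deposited table holds, it called 5 (6.94%) in any of 14 comparisons, against 12.9% of all events in it.

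**Figure D5:**
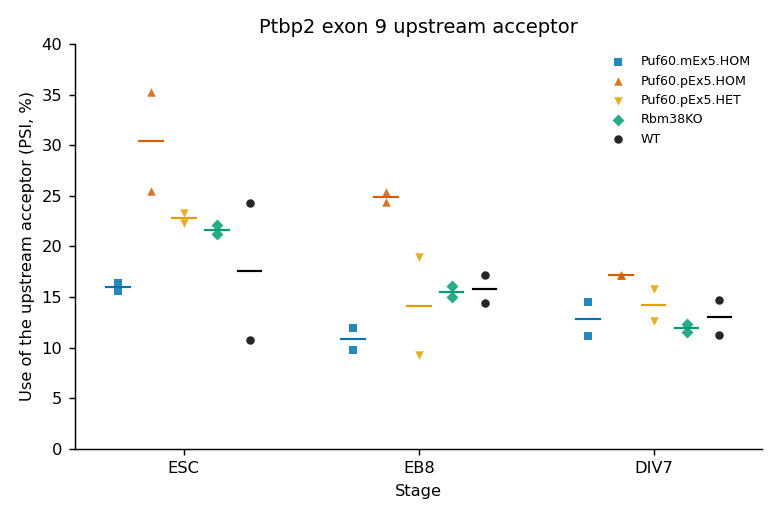
Use of the upstream acceptor of Ptbp2 exon 9 (PSI, %) in each library by stage, with 1 marker per line and bars at group means. In EB8 both Puf60.pEx5.HOM libraries (24.35 and 25.42%) lie above all other libraries, and both Puf60.mEx5.HOM libraries (9.78 and 11.89%) lie below those of WT.

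Among the remaining alternative sites, a pair of Ptbp2 acceptors 3 nt apart was used about equally. Their group means were 45.64 to 55.23% and 44.77 to 54.36%, with 57 to 691 reads. A 9-nt donor pair of Ptbp3 was used at group means of 8.85 to 23.8% with only 12 to 82 reads, and a 63-nt exon of Ptbp2 was included in at most 2.68% of transcripts. The constitutive 140-nt body of Ptbp2 exon 9 had group means of 99.29% or more.

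Genes with exons known as PTB targets were followed beside the proteins that bind them, as a list of 30 genes. All cassette exons of these genes that could be tested were counted, whether or not they are known targets. A repressed exon of Src is a textbook target of Ptbp1, and an exon of Dlg4, which encodes the synaptic scaffold PSD-95, is known as a late target. In WT, the 18-nt exon of Src was at 4.93% in ESC, 54.5% in EB8 and 79.0% in DIV7. The 110-nt exon of Dlg4 was at 51.3%, 79.8% and 93.0% in the same order of stages. Its length is not a multiple of 3, and its values too describe the RNA that remained. Exons of Exoc1, an exocyst subunit (21 nt; 1.2%, 49.2% and 94.9%), and Clta, a clathrin light chain (54 nt; 0.555%, 20.0% and 73.6%), rose as well. Of the list's 66 exons tested in EB8 against ESC, 27 were called up and 7 down (40.9% and 10.6%), against 13.8% and 9.18% of all 7264 cassette exons. In DIV7 against EB8, 31 of 83 were called up and 13 down (37.3% and 15.7%), against 16.3% and 12.4% of 8104. The medians were 7.59 and 2.71 points for the list and 0.742 and 0.708 points for all cassette exons. The genes were listed for known regulation of an exon, and their other exons are counted too. These counts therefore describe the list and do not test it.

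Genes that act with PTB proteins or on them made up a second list, of which 26 of 27 could be tested. Raver1, which encodes a PTB co-repressor, fell by 0.41 (log2) in WT EB8 against ESC (adjusted p = 0.00247) and by 1.36 in DIV7 against EB8 (5.66e-10). Matr3, which encodes a PTB-binding nuclear matrix protein, rose by 0.28 (0.0104) and 0.47 (0.000139) in the same comparisons. Srrm4, the neuronal microexon factor that promotes Ptbp2 exon 10 inclusion, was at 0.614 CPM in ESC, 38.2 CPM in EB8 and 26.5 CPM in DIV7 (WT means), and rose by 4.61 in EB8 against ESC (3.53e-17). Rest, which encodes a repressor of neuronal genes, fell by 2.90 in the same comparison (1.12e-10). Mir124-2hg, a host transcript of miR-124, had 0.15 RPKM in WT ESC, 104.34 in EB8 and 32.79 in DIV7 in the authors' deposited table. At 2-fold, 8 of the 26 genes were higher, 3 lower and 15 not called in EB8 against ESC, and 2 were higher and 3 lower in DIV7 against EB8. Of all genes, 21.7% were higher and 18.2% lower in EB8 against ESC, and 17.6% higher and 12.7% lower in DIV7 against EB8.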

How the data were processed

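The deposited expression table gives the authors' RPKM per group, log2 fold changes, p-values and FDR, per the file headers. Salmon 0.14.1, edgeR and mm10 come from the submitters' processing notes. The deposited splicing tables hold the authors' PSI, in percent per library with quality strings of read numbers, and a score per group with calls, per the file headers. For the splicing caller, version and settings were not given in the sources used here. The table used had 0 per-sample columns without a sample.

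Exon-exon junction reads were taken from the strings of retained-intron events and summed per gene. They were scaled by the median of ratios to CPM. Genes with at least 1 CPM in 2 libraries were fitted as log2(CPM + 1), with 1 mean per group (limma 3.58.1, R 4.3.3, 15 residual degrees of freedom). Splicing was fitted as log2 of inclusion over exclusion reads, with 1 read added to each and weights by reads, for a mean PSI of 5 to 95 and at least 10 reads. By exact permutation of stages within lines, 7 measures were tested: the Ptbp1 exon 9 ratio, Ptbp1 exon 11, Ptbp2 exon 10, Ptbp3 exon 2, the Ptbp2 exon 9 acceptor and the introns beside Ptbp1 exon 9. P-values were adjusted over all features tested (Benjamini-Hochberg). Scripts were tested on simulated data. Intervals from read numbers cover counting error only.

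The members, the lists and the tests were chosen with earlier results of these data known. Events were described singly where group means spanned at least 10 points or where the exon is a known autoregulated one. The introns beside Ptbp1 exon 9 and before Ptbp2 exon 9, the Ptbp2 63-nt exon and the Ptbp3 78-nt exon fall outside this rule and were chosen after their values were seen. The pair of Ptbp2 acceptors 3 nt apart falls outside it too. Scaling, filters, weights, samples in the fit, a replicate block and each library left out were tried as alternatives. No genome sequence was used, so intronic tracts are not shown.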

Additional observations from a re-analysis of the deposited data

Results flagged for a closer look

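The stage change of a pair of members differed between Puf60.mEx5.HOM and Puf60.pEx5.HOM by a test of the difference itself. The log2 change of Ptbp1 in EB8 against ESC was lower by 0.811 in Puf60.mEx5.HOM than in Puf60.pEx5.HOM (a difference of -0.811, SE 0.29, limma, adjusted p = 0.0382). That of Ptbp2 was higher by 0.59 (SE 0.20, limma, adjusted p = 0.0270). In the same libraries, 32.4% of all genes passed this test. Summed neuronal markers in EB8 were 1628 and 1849 CPM in Puf60.mEx5.HOM, against 674 and 801 CPM in Puf60.pEx5.HOM. In the same order of lines, endoderm and epithelium markers in EB8 summed to 39.3 and 56.3 against 258 and 379 CPM. Fibroblast and smooth muscle markers in EB8 summed to 354 and 766 against 84.7 and 94.0 CPM. Neural progenitor markers in ESC summed to 650 and 707 against 348 and 428 CPM. The part of these markers in both differences was not tested.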

How the results depend on the processing

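Of 375 values for 32 results under the alternatives, 328 were the same. These kept their direction and side of the threshold or, for counts of member tests past the threshold, stayed near the main count. Such counts were 2 to 4 of 36 for edited lines against WT, 32 to 36 of 36 between stages in edited lines, and 0 of 24 for differences of stage changes from WT. Another 44 values kept only their direction, 1 passed the threshold only under an alternative and 2 changed sign. Scaling by total junction reads gave Ptbp3 in WT EB8 against ESC a log2 change of -0.0497 (adjusted p = 0.788). Without weights, the Ptbp2 acceptor difference of -14.05 points in EB8 between Puf60.mEx5.HOM and Puf60.pEx5.HOM had an adjusted p of 0.0518. Using the downstream junction only, the DIV7 against EB8 difference of the Ptbp1 exon 9 ratio was -0.000941. Over the fits that left out a library, WT Ptbp2 in DIV7 against EB8 ran from -0.50 to -0.35. WT Ptbp3 exon 2 ran from 10.5 to 15.5 points in EB8 against ESC, from -7.17 to 1.05 in DIV7 against EB8 and from 5.85 to 14.1 in DIV7 against ESC. The Ptbp2 acceptor in Puf60.pEx5.HOM ran from -18.1 to -8.34 points in DIV7 against ESC. The cause was not tested. Quantile normalization gave WT Ptbp1 a change of -0.997 in EB8 against ESC, and total scaling -1.28. Libraries with the same letter deviated together within ESC (correlations of 0.32 to 0.53, 10 of 10 over 0.1), a hint from the data, and less within EB8 (5 of 10), within DIV7 (4 of 10) and between stages of a line (3 of 15). A replicate block left 3 of 36 differences between edited lines and WT past the threshold, and a block within each stage, added after the data were seen, 4 of 36. Neither ended a call of the values recomputed. Depth limits Ptbp3 most, with 19 to 37 reads at exon 2 in DIV7.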
